A study of Mus musculus with 16 samples.

Results

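The genes of milk protein and milk fat secretion described here are the 5 casein genes (Csn1s1, Csn2, Csn1s2a, Csn1s2b and Csn3), the whey protein genes Wap and Lalba, the secreted mucin-like protein gene Glycam1, and the milk fat globule genes Btn1a1 and Xdh. They were chosen by name, with earlier results of these data known, and every probe set annotated to exactly 1 of these symbols was taken. This gave 17 probe sets for 9 of the 10 genes, out of 17097 genes with a single-symbol probe set. Xdh had no such probe set and was not analysed here. All 9 genes passed the filter on low signal and were among the 14410 genes tested, while 3 of the 17 probe sets lay below it (2 of Csn1s2a and 1 of Csn3). Unless another is named, a gene's values are those of whichever of its probe sets had the highest mean signal.

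Sorted luminal cells of mouse mammary glands were measured on 16 arrays in 4 groups of 4, as log2 signals. All 4 groups carried MMTV-Cre, a transgene that places the Cre recombinase under the mouse mammary tumour virus promoter, which is active in mammary epithelium. The 9-week groups were MMTV-Cre alone and MMTV-Cre with p38a-lox, the floxed allele of Mapk14, which encodes the kinase p38α; they are called MMTV-Cre and p38a-lox below. The 6-week groups carried in addition MMTV-PyMT, the polyoma middle T oncogene under the same viral promoter, without p38a-lox (PyMT) or with it (p38a-lox PyMT). Every comparison of PyMT with no PyMT is therefore also one of 6 with 9 weeks, and the transgene and the age cannot be told apart. The labels give no reproductive state, batch or pairing, and do not say that each array is a separate animal. The p-values therefore weigh a difference against the spread between these samples, which may not be the spread between animals. The study asked how p38α bears on luminal cell differentiation and tumour formation.

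Array medians ran from 4.63 to 4.88, and no 2 arrays held identical values. All 10 luminal epithelial markers were measured well above the filter, with list means of 10.55 to 11.59 per array. Of the leukocyte markers 8 of 11 measured genes passed the filter (Cd68 had the highest mean, 7.68), while Ptprc (2.83), Cd3e (3.27) and Itgam (3.26) lay below it. Of the adipocyte markers 3 of 5 passed (Retn 5.29, Plin4 5.10 and Fabp4 4.86, with Fabp4 up to 7.96), while Adipoq (3.38) and Lep (3.32) lay below. Of the fibroblast markers 3 of 7 measured genes passed: Dcn (6.99, up to 9.82), Col3a1 (6.32, up to 9.10) and Col1a1 (6.10, up to 7.88). Col1a2 (3.36), Pdgfra (3.55), Lum (3.53) and Dpt (3.62) lay below. All 8 endothelial markers passed, with Pecam1 the highest at 5.29. Mapk14 had 6 probe sets. The p38a-lox mean was below the MMTV-Cre mean for 0 of them, and the p38a-lox PyMT mean was below the PyMT mean for 5, with differences down to -0.38. The signal of the probe set with the highest mean was 6.53 ± 0.885 (SD, n = 4) in MMTV-Cre and 7.31 ± 0.862 (SD, n = 4) in p38a-lox, and 7.20 ± 0.321 (SD, n = 4) in PyMT and 7.23 ± 0.103 (SD, n = 4) in p38a-lox PyMT. The labels do not say where these probe sets lie relative to the deleted part of the gene. They therefore are no measure of recombination, and the p38a-lox comparisons rest on the genotype labels.

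Caseins are the phosphoproteins that package calcium and amino acids into milk micelles, and kappa-casein, the product of Csn3, coats and stabilises the micelle. Alpha-lactalbumin (Lalba) turns the galactosyltransferase B4galt1 into lactose synthase, and whey acidic protein (Wap) is the abundant whey protein of rodent milk. Most of these genes are switched on in alveolar luminal cells during pregnancy by prolactin through its receptor, the kinase Jak2, Stat5 and the transcription factor Elf5; the caseins respond early, and Wap and Lalba late. Butyrophilin (Btn1a1) and xanthine dehydrogenase (Xdh) sit on the membrane that wraps milk fat droplets as they leave the cell.

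The 5 casein genes lie together on chromosome 5 in the order Csn1s1, Csn2, Csn1s2a, Csn1s2b and Csn3, with 3 other protein-coding genes (Prr27, Odam and BC037156) between Csn1s2b and Csn3. Wap is on chromosome 11, Lalba and Glycam1 are on chromosome 15, Btn1a1 is on chromosome 13 and Xdh is on chromosome 17. RefSeq promoter windows (GRCm38.p6, 250 bases before to 50 after the start of transcription) were at hand for 6 of the genes: Csn1s1, Csn1s2a, Csn2, Glycam1, Lalba and Wap. The letters TTCNNNGAA, the core that Stat5 recognises, which read the same on both strands, occurred in 4 of the 6 windows and in 8.30% of all 32851 such windows. Shown are the 150 bases before the start for a pair of caseins whose signals moved together and for both whey protein genes, 5′ to 3′ in the direction of transcription, with a match in capitals (Csn1s1 chr5:87666058-87666207, plus strand; Csn2 chr5:87699426-87699575, minus strand; Wap chr11:6638650-6638799, minus strand; Lalba chr15:98482684-98482833, minus strand).
Csn1s1: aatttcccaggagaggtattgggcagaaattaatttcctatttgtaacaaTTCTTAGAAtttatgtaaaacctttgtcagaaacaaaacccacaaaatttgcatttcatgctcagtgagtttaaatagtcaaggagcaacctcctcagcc
Csn2: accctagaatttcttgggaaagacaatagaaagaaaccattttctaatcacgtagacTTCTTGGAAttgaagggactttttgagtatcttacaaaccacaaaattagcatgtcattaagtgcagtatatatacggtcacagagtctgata
Wap: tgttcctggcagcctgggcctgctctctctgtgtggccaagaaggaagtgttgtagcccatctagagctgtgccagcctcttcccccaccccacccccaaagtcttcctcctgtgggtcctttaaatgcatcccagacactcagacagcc
Lalba: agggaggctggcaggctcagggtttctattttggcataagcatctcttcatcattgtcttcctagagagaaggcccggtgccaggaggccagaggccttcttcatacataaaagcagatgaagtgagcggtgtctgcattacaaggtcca
The match of Csn1s1 began 100 bases before the start and that of Csn2 93 bases before it. The match in Glycam1 (TTCCCAGAA) began 145 bases before the start, and the match in Csn1s2a (TTCTTAGAA) lay 21 bases after it. These letters were not in the windows of Wap and Lalba. The annotated Lalba gene reaches to position 98482934, so the start used for its window and the stretch shown lie within it. Bases before that outer end of Lalba were not searched. TATAAA, searched on both strands, was in 0 of the 6 windows and in 13.6% of all windows, so no match of the 2 motifs overlapped. A match is a description of the letters and no measure of binding.

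**Figure D1:**
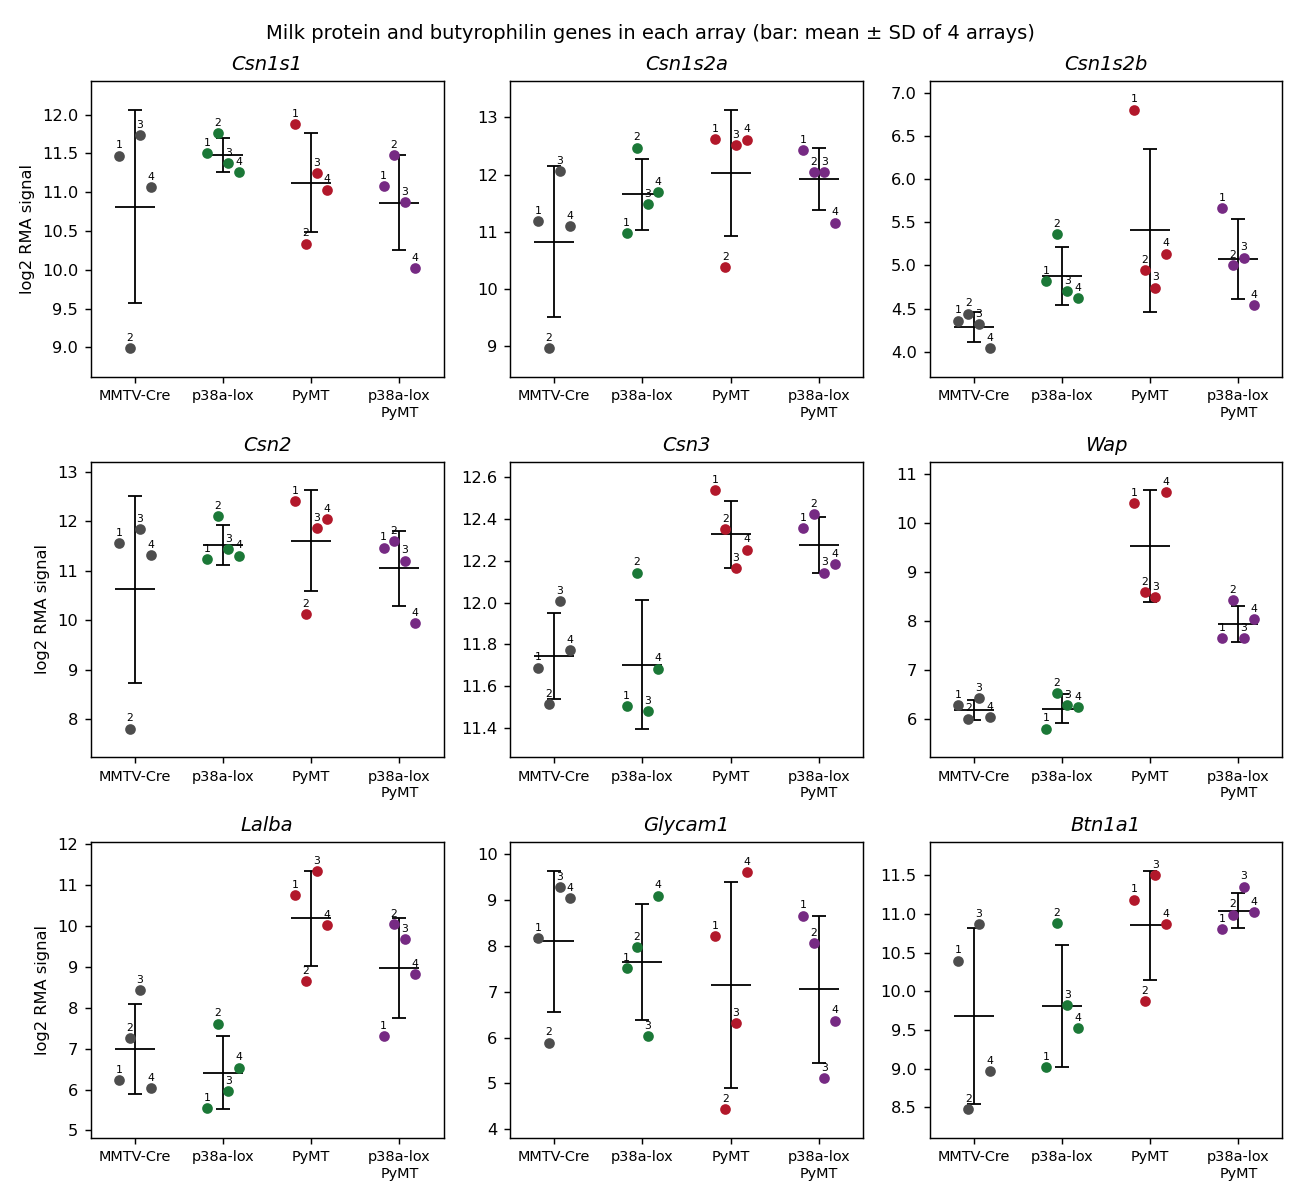
Log2 signal (vertical axes, which differ between panels) of the 9 measured genes in each of the 16 arrays, by group, with numbers marking the replicate; horizontal lines and bars are the mean and SD of 4 arrays. Wap and Lalba stand higher in all 4 PyMT arrays than in all 4 MMTV-Cre arrays, and array MMTV-Cre 2 is the lowest of the 16 for Csn1s1, Csn1s2a, Csn2 and Btn1a1.

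The whey protein genes differed most with PyMT. Wap had signals of 6.27, 6.00, 6.42 and 6.03 in the MMTV-Cre arrays and 5.80, 6.52, 6.28 and 6.23 in the p38a-lox arrays. It had 10.41, 8.59, 8.49 and 10.63 in the PyMT arrays and 7.65, 8.42, 7.64 and 8.03 in the p38a-lox PyMT arrays. The groups without PyMT lay on top of each other, the p38a-lox PyMT arrays lay above both, and the PyMT arrays lay above all others. Within PyMT, arrays 1 and 4 were about 2 log2 units above arrays 2 and 3. In PyMT against MMTV-Cre, Wap rose by 3.35 ± 0.409 (SE; 10.2-fold; 95% interval 2.48 to 4.22), with a limma adjusted p of 0.00203, and was higher in 4 of 4 arrays. It ranked 5 of 14410 genes by p in that comparison. The call was made in all 16 fits that left out 1 array, with differences of 2.98 to 3.70.

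Lalba had signals of 6.22, 7.26, 8.43 and 6.04 in MMTV-Cre and 5.56, 7.61, 5.96 and 6.54 in p38a-lox. It had 10.76, 8.65, 11.34 and 10.03 in PyMT and 7.30, 10.04, 9.69 and 8.83 in p38a-lox PyMT. The lowest PyMT array was just above the highest MMTV-Cre array, and array 1 of p38a-lox PyMT lay within the range of the arrays without PyMT. In PyMT against MMTV-Cre, Lalba rose by 3.21 ± 0.706 (SE; 9.23-fold; 95% interval 1.70 to 4.71), with a limma adjusted p of 0.0398. This call was less stable than that of Wap: it was made in 7 of 16 fits that left out 1 array. It was lost without MMTV-Cre 1 (adjusted p 0.1065), MMTV-Cre 4 (0.1246), PyMT 1 (0.1322), PyMT 3 (0.1015) or PyMT 4 (0.0884). It was also lost without p38a-lox 3 (0.0558), p38a-lox 4 (0.0536), p38a-lox PyMT 3 (0.0521) or p38a-lox PyMT 4 (0.0566). Those arrays lie outside this comparison and enter only the shared estimate of the spread. The difference stayed between 2.82 and 3.72 in all 16 fits.

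These were the 2 of 9 milk genes called higher in PyMT against MMTV-Cre, where 0.881% of all tested genes were called higher, and 0 of 9 were called lower, where 0.382% of all tested genes were. The median difference of the 9 genes was 1.11, against 0.03 for all tested genes, and 8 of 9 estimates were above 0. The 4 PyMT arrays did not overlap the 4 MMTV-Cre arrays for 4 of 9 genes, all higher, against 4.44% of all tested genes; beside Wap and Lalba these were Csn3 and Csn1s2b.

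Csn3 had signals of 11.69, 11.51, 12.01 and 11.77 in MMTV-Cre and 11.50, 12.14, 11.48 and 11.68 in p38a-lox. It had 12.54, 12.35, 12.16 and 12.25 in PyMT and 12.36, 12.42, 12.14 and 12.19 in p38a-lox PyMT. Its arrays with PyMT sat within a narrow band above nearly all others, array 2 of p38a-lox being the exception. The difference was 0.58 ± 0.160 (SE) in PyMT against MMTV-Cre, with an adjusted p of 0.0896. It was 0.57 ± 0.160 (SE) in p38a-lox PyMT against p38a-lox, with an adjusted p of 0.121. Neither passed the threshold. Without array p38a-lox 2 both did, with limma adjusted p-values of 0.0382 and 0.0298. That array lies outside PyMT against MMTV-Cre, where it enters only the shared estimate of the spread. The other Csn3 probe set lay below the filter, between 2.80 and 3.32 in all arrays.

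Csn1s2b, which encodes a calcium-sensitive casein, had signals of 4.36, 4.44, 4.32 and 4.04 in MMTV-Cre and 4.82, 5.36, 4.70 and 4.62 in p38a-lox. It had 6.80, 4.94, 4.74 and 5.14 in PyMT and 5.67, 5.003, 5.09 and 4.54 in p38a-lox PyMT. All 12 arrays of the other groups were above all 4 MMTV-Cre arrays, and array PyMT 1 stood highest. The difference was 1.11 ± 0.365 (SE) in PyMT against MMTV-Cre, with an adjusted p of 0.157, and 0.65 without array PyMT 1.

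Csn2, the β-casein gene, had signals of 11.56, 7.81, 11.84 and 11.32 in MMTV-Cre and 11.23, 12.10, 11.45 and 11.31 in p38a-lox. It had 12.41, 10.12, 11.87 and 12.05 in PyMT and 11.47, 11.61, 11.21 and 9.95 in p38a-lox PyMT. A single array stood low in 3 of the groups: MMTV-Cre 2, PyMT 2 and p38a-lox PyMT 4. All groups overlapped. The difference was 0.98 ± 0.740 (SE) in PyMT against MMTV-Cre, with an adjusted p of 0.626, and 0.04 without array MMTV-Cre 2.

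Csn1s1, the αs1-casein gene, had signals of 11.47, 8.99, 11.74 and 11.06 in MMTV-Cre and 11.51, 11.76, 11.37 and 11.26 in p38a-lox. It had 11.88, 10.34, 11.25 and 11.03 in PyMT and 11.08, 11.48, 10.88 and 10.03 in p38a-lox PyMT. The same 3 arrays were the lowest of their groups as for Csn2. The difference in PyMT against MMTV-Cre was 0.31 ± 0.499 (SE), with an adjusted p of 0.859, and it turned to -0.30 without array MMTV-Cre 2.

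Csn1s2a, another calcium-sensitive casein gene, had signals of 11.19, 8.97, 12.06 and 11.10 in MMTV-Cre and 10.98, 12.47, 11.48 and 11.69 in p38a-lox. It had 12.63, 10.38, 12.52 and 12.61 in PyMT and 12.43, 12.05, 12.05 and 11.16 in p38a-lox PyMT. Arrays MMTV-Cre 2, PyMT 2 and p38a-lox PyMT 4 were again the lowest of their groups. The difference in PyMT against MMTV-Cre was 1.21 ± 0.611 (SE), with an adjusted p of 0.416. It was 0.58 without MMTV-Cre 2 and 1.76 without PyMT 2.

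Btn1a1, which encodes the butyrophilin of the milk fat globule membrane, had signals of 10.40, 8.48, 10.87 and 8.97 in MMTV-Cre and 9.02, 10.88, 9.83 and 9.52 in p38a-lox. It had 11.19, 9.87, 11.50 and 10.87 in PyMT and 10.81, 10.99, 11.36 and 11.03 in p38a-lox PyMT. The p38a-lox PyMT arrays lay close together, and the groups without PyMT were spread widely. The difference was 1.18 ± 0.506 (SE) in PyMT against MMTV-Cre (adjusted p 0.309) and 1.23 ± 0.506 (SE) in p38a-lox PyMT against p38a-lox (adjusted p 0.329), so neither was called.

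Glycam1 had signals of 8.17, 5.89, 9.29 and 9.04 in MMTV-Cre and 7.51, 7.97, 6.03 and 9.10 in p38a-lox. It had 8.22, 4.44, 6.32 and 9.61 in PyMT and 8.66, 8.05, 5.12 and 6.37 in p38a-lox PyMT. Every group spanned at least 3 log2 units and all 4 overlapped. The difference in PyMT against MMTV-Cre was -0.95 with a 95% interval of -3.28 to 1.38, so this gene gave no order of the groups.

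In p38a-lox PyMT against p38a-lox, 0 of 9 milk genes were called (0.548% of all tested genes were called higher and 0.229% lower), and 4 had an unadjusted limma p under 0.05, as had 1751 of all 14410 tested genes. Wap differed by 1.73 ± 0.409 (SE; 3.32-fold), with an adjusted p of 0.0635. Its arrays did not overlap, which was so for 1 of 9 genes, higher, against 4.41% of all tested genes. The Wap call was made without PyMT 2 (adjusted p 0.0446), PyMT 3 (0.0422) or PyMT 4 (0.0351), arrays outside this comparison that enter only the shared estimate of the spread. Lalba differed by 2.55 ± 0.706 (SE; adjusted p 0.121), and by 3.10 without array p38a-lox PyMT 1, where it was called (0.0414). Csn1s1 and Csn2 had estimates below 0, at -0.61 ± 0.499 (SE) and -0.47 ± 0.740 (SE).

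**Figure D2:**
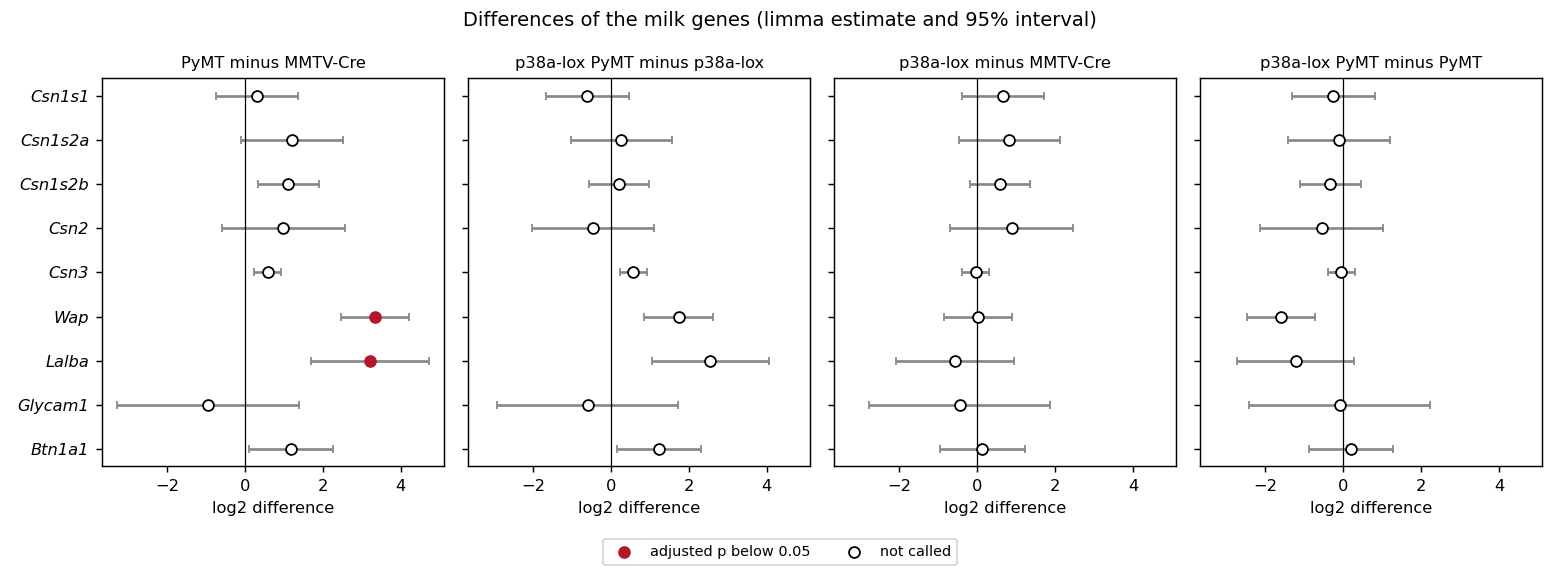
Limma estimates of the log2 difference (horizontal axes) with 95% intervals for the 9 genes in 4 comparisons; filled points have an adjusted p below 0.05. The filled points are Wap (3.35) and Lalba (3.21) in PyMT minus MMTV-Cre, and the intervals of Glycam1, Csn2 and Lalba are the widest.

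Without PyMT, p38a-lox and MMTV-Cre were not told apart by any milk gene: 0 of 9 were called and 0 had an unadjusted limma p under 0.05, with 0% of all tested genes called and 690 of 14410 under 0.05 unadjusted. Csn3 had the narrowest interval, a difference of -0.04 with 95% limits of -0.38 and 0.30, and Wap differed by 0.03 with limits of -0.85 and 0.90. Lalba differed by -0.57 with limits of -2.08 and 0.94, and Glycam1 by -0.45 with limits of -2.77 and 1.88, so changes of several fold would not have been detectable for these genes. Csn1s2b differed by 0.58 ± 0.365 (SE; adjusted p 0.999), and its arrays did not overlap (1 of 9 genes, higher, against 0.93% of all tested genes). The estimates for Csn2 (0.89), Csn1s2a (0.83) and Csn1s1 (0.66) rested in large part on array MMTV-Cre 2, without which they were -0.05, 0.21 and 0.05.

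With PyMT, 0 of 9 milk genes were called in p38a-lox PyMT against PyMT, where 0% of all tested genes were called and 516 had an unadjusted limma p under 0.05. The estimates were below 0 for 8 of 9 genes, with a median of -0.26 against -0.04 for all tested genes. Wap had the smallest p of the 9: its difference was -1.59 ± 0.409 (SE; 95% interval -2.47 to -0.72), lower in 4 of 4 arrays, with an unadjusted p of 0.00147, an adjusted p of 0.999 and rank 11 of 14410. Its arrays did not overlap (1 of 9 genes, lower, against 1.89% of all tested genes), and the exact two-sided permutation test gave 0.0286, the smallest p that 4 arrays against 4 allow. Lalba differed by -1.23 ± 0.706 (SE; 95% interval -2.74 to 0.28). The intervals were narrow around 0 for Csn3 (-0.39 to 0.29) and wide for Csn2 (-2.13 to 1.02) and Glycam1 (-2.42 to 2.23). Btn1a1 had the estimate above 0, at 0.19.

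Whether the p38a-lox difference itself depended on PyMT was tested as an interaction, the difference with PyMT minus that without. Of the 9 genes 0 were called, as were 0% of all tested genes, of which 406 had an unadjusted p under 0.05. Wap had an interaction of -1.62 ± 0.579 (SE; 95% interval -2.86 to -0.39), with an unadjusted limma p of 0.0136, an adjusted p of 0.992 and rank 84. The estimates for Csn2 (-1.45), Csn1s2a (-0.94), Csn1s1 (-0.92) and Csn1s2b (-0.91) were also below 0, and without array MMTV-Cre 2 those of Csn2, Csn1s2a and Csn1s1 were -0.51, -0.32 and -0.31. These 5 comparisons share arrays and are not independent of each other.

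**Figure D3:**
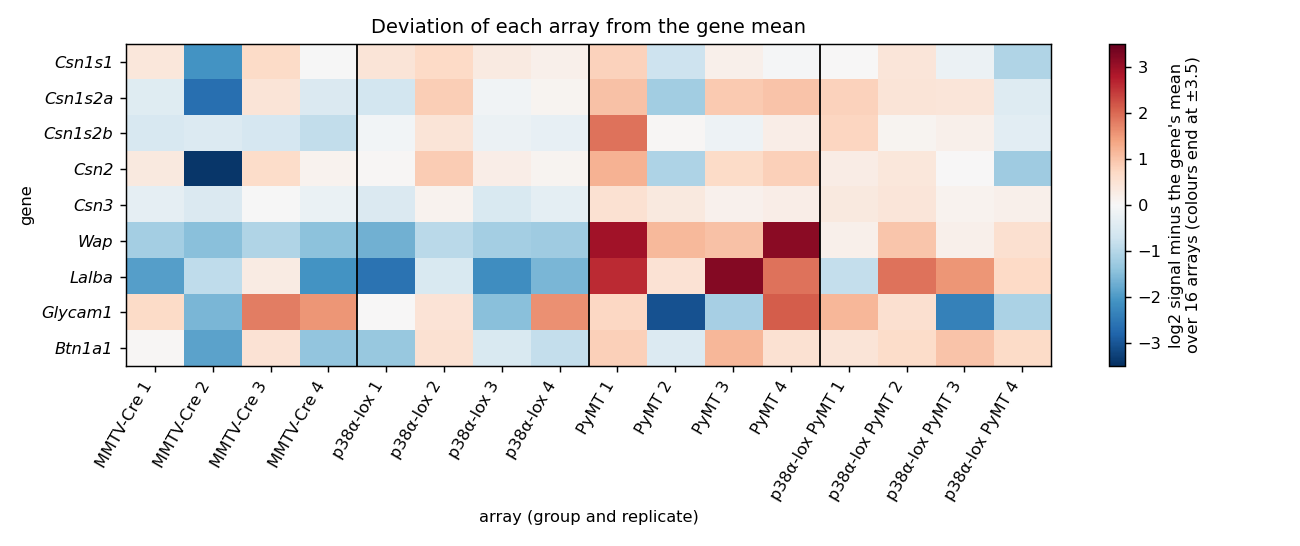
Log2 signal of each gene (vertical axis) in each array (horizontal axis) minus the gene's mean over 16 arrays, in colour, with vertical lines between groups. Csn1s1, Csn1s2a, Csn2 and Btn1a1 are low together in array MMTV-Cre 2, while the high values of Wap and Lalba fall in the PyMT arrays.

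The milk genes varied within groups far more than most genes. The residual SD was 1.71 for Glycam1, larger than that of 99.9% of tested genes, 1.16 for Csn2 (99.5%) and 1.10 for Lalba (99.3%), against a median of 0.318 over all tested genes. Csn1s2a (0.952), Btn1a1 (0.784), Csn1s1 (0.772), Wap (0.630) and Csn1s2b (0.558) also lay above the median gene. Csn3 was the exception, with 0.213, larger than that of 25.7% of tested genes. In bulk samples, fewer cells expressing a gene and less RNA per cell cannot be told apart.

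Part of this spread was shared. Over the deviations of the 16 arrays from their group means, Csn1s1 and Csn2 had a correlation of 0.97, Csn1s2a and Csn2 of 0.94, and Csn1s1 and Csn1s2a of 0.87; these 3 genes are neighbours in the casein cluster. Btn1a1, on another chromosome, had 0.81 with Csn1s2a and 0.71 with Csn2. Csn1s2b, which lies beside Csn1s2a, had 0.31 with it. Wap and Lalba had a correlation of 0.83 over the 16 arrays and of 0.29 over the deviations from the group means, so what they shared was mostly the difference between groups. These correlations share arrays, probe summarisation and normalisation and are given as a description.

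**Figure D4:**
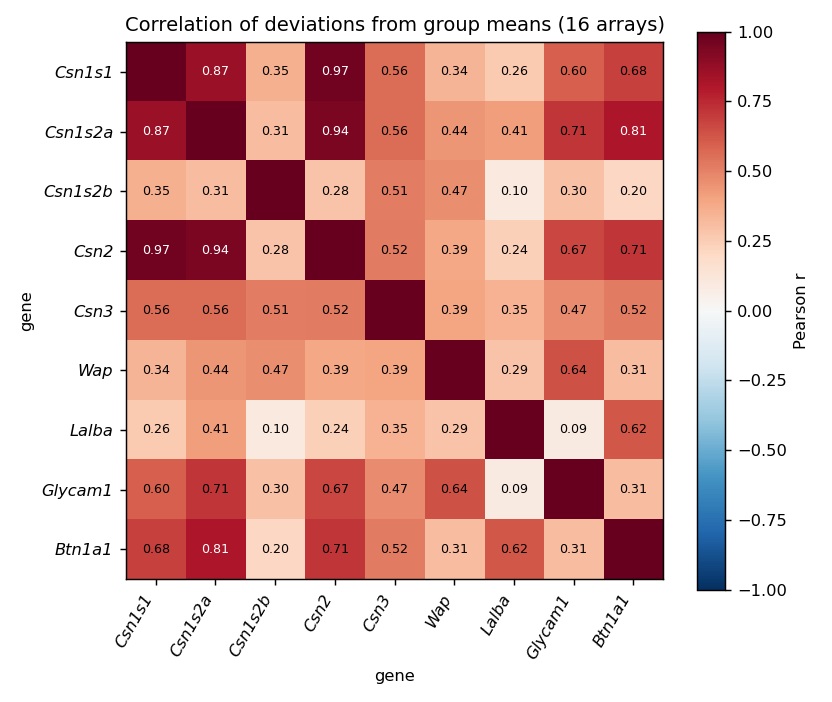
Pearson correlation, in colour and digits, between the 9 genes (both axes) over the deviations of 16 arrays from their group means. The block of Csn1s1, Csn1s2a and Csn2 runs from 0.87 to 0.97, and Lalba has 0.10 with Csn1s2b and 0.09 with Glycam1.

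Where a gene had several probe sets past the filter, they ran together, with 1 exception. The correlation over 16 arrays was 0.99 for the pair of Csn1s2a and 0.99 for the top pair of Csn2, and 0.89 to 0.95 for the 3 probe sets of Btn1a1. The remaining Csn2 probe set, with group means of 4.28 to 4.73, had a correlation of 0.07 with the first. The other Csn1s2a probe set past the filter differed by 1.60 ± 0.873 (SE) in PyMT against MMTV-Cre and the other high Csn2 probe set by 1.46 ± 0.857 (SE). The remaining Btn1a1 probe sets differed by 0.84 ± 0.581 (SE) and 1.33 ± 0.598 (SE); none of these was called in the fit over all 45141 probe sets. In that fit Wap was called in PyMT against MMTV-Cre (adjusted p 0.0055) and Lalba was not (0.0743).

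Markers of other mammary cell types differed between the same arrays. The mean of the 9 measured basal and myoepithelial markers (of 12 listed), among them Krt5, Krt14 and Acta2, was 5.92 to 7.60 in MMTV-Cre, 5.49 to 7.21 in p38a-lox, 7.23 to 8.07 in PyMT and 7.43 to 8.14 in p38a-lox PyMT, so it was higher in the groups in which Wap and Lalba were higher. The mean of the 11 measured leukocyte markers (of 12 listed) was 4.22 to 4.48 in MMTV-Cre and 4.48 to 4.65 in PyMT. It was 4.08 to 4.67 in p38a-lox and 4.46 to 4.61 in p38a-lox PyMT. The mean of the 10 luminal progenitor markers was 7.61 to 8.51 in MMTV-Cre and 7.53 to 8.18 in PyMT. It was 8.15 to 8.51 in p38a-lox and lower, without overlap, in p38a-lox PyMT (7.47 to 7.87). The part of these markers in the results for Wap and Lalba was not tested. Array MMTV-Cre 2, the lowest for Csn1s1, Csn2, Csn1s2a and Btn1a1, had the highest mean of the 7 measured hormone-sensing luminal markers (of 10 listed; 8.96, with the other MMTV-Cre arrays at 5.91 to 7.37) and the lowest mean of the luminal progenitor markers in its group (7.61). Array PyMT 2, low for the same 4 genes, had the highest hormone-sensing mean of its group (7.02). Its luminal progenitor mean (7.75) was not the lowest there, which was that of PyMT 4 (7.53). Array p38a-lox PyMT 4 was the lowest of its group for Csn1s1, Csn2 and Csn1s2a. Its hormone-sensing mean did not stand out (6.53, in a group of 5.86 to 7.87). Array p38a-lox PyMT 1 had that group's highest hormone-sensing mean (7.87) and its highest Csn1s2a signal (12.43). Array MMTV-Cre 3, next in its group after MMTV-Cre 2 at 7.37, had that group's highest Csn1s1, Csn2 and Csn1s2a signals. The part of these cell markers in the casein values was not tested.

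**Figure D5:**
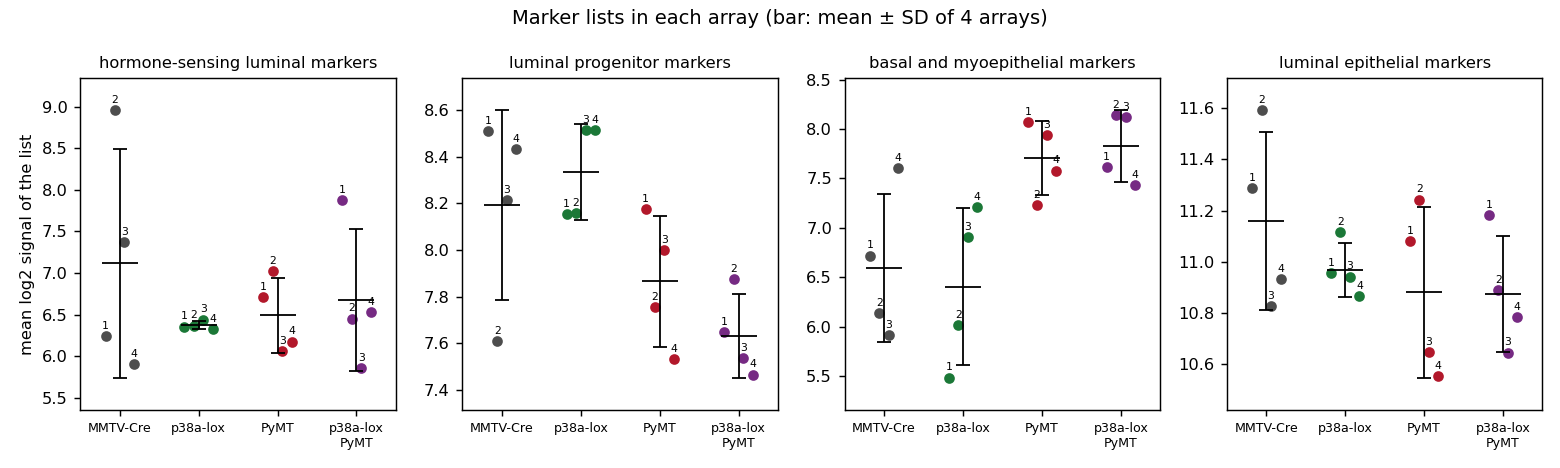
Mean log2 signal of 4 marker lists (vertical axes, which differ between panels) in each array by group, with numbers marking the replicate; lines and bars are the mean and SD of 4 arrays. Array MMTV-Cre 2 has the highest hormone-sensing value (8.96), and the basal list is at 7.23 to 8.14 in the arrays with PyMT.

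Of 27 prolactin signalling and lactation regulator genes upstream of the milk genes, 23 were tested; in PyMT against MMTV-Cre 1 was called higher and 1 lower, where 0.881% of all tested genes were called higher and 0.382% lower. Cebpb, a transcription factor needed for secretory differentiation, rose from 8.58 ± 0.566 (SD, n = 4) to 10.14 ± 0.696 (SD, n = 4), a difference of 1.56 ± 0.353 (SE; adjusted p 0.0457). Igf1r, the receptor for insulin-like growth factor, fell by 1.20 ± 0.276 (SE; adjusted p 0.0484), and it fell by 1.28 ± 0.276 (SE; adjusted p 0.0478) in p38a-lox PyMT against p38a-lox, where it was the sole regulator called. With the mean of all probe sets of each gene, neither Cebpb nor Igf1r was called. Cebpb then differed by 0.67 (limma adjusted p 0.0969) and Igf1r by -0.74 (0.0958) in PyMT against MMTV-Cre. Igf1r then differed by -0.88 (limma adjusted p 0.0586) in p38a-lox PyMT against p38a-lox. The median difference of the list was 0.03 in PyMT against MMTV-Cre, the same as for all tested genes. Prlr, the prolactin receptor, had no single-symbol probe set and was not analysed here.

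The core of the prolactin pathway gave no call. Stat5a differed by -0.40 ± 0.286 (SE; adjusted p 0.600) and Stat5b by -0.77 ± 0.263 (SE; adjusted p 0.182) in PyMT against MMTV-Cre. Elf5 was at 9.47 ± 1.06 (SD, n = 4) in MMTV-Cre and 9.71 ± 0.514 (SD, n = 4) in PyMT, with its difference at 0.24 ± 0.445 (SE). The Stat5 target genes Cish and Socs2, which feed back on cytokine signalling, differed by 0.20 ± 0.391 (SE) and 0.46 ± 0.327 (SE). In p38a-lox PyMT against PyMT, Cish differed by -0.69 ± 0.391 (SE) and Stat5a by -0.04 ± 0.286 (SE), both with an adjusted p of 0.999.

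The milk fat list had 3 of 24 tested genes (28 listed) called higher in PyMT against MMTV-Cre and 0 lower (all tested genes: 0.881% and 0.382%), with a median difference of 0.23, against 0.03 for all tested genes. Thrsp, which promotes medium-chain fatty acid synthesis, rose from 5.75 ± 1.32 (SD, n = 4) to 9.72 ± 0.623 (SD, n = 4), by 3.97 ± 0.710 (SE; adjusted p 0.0145). Fasn, the fatty acid synthase, rose by 1.84 ± 0.422 (SE; adjusted p 0.0484), and Elovl5, which elongates fatty acids, by 1.25 ± 0.217 (SE; adjusted p 0.0135). Plin2, which coats milk fat droplets, differed by 0.15 ± 0.271 (SE), and Cidea, which binds droplets and interacts with the secretion machinery, by -0.73 ± 0.300 (SE; adjusted p 0.280). In p38a-lox PyMT against p38a-lox 0 of the 24 were called; Elovl5 differed by 0.96 ± 0.217 (SE; adjusted p 0.0521) and Thrsp by 2.14 ± 0.710 (SE; adjusted p 0.199).

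Of the 9 tested genes of lactose synthesis and sugar supply (11 listed), 0 were called in PyMT against MMTV-Cre and 1 in p38a-lox PyMT against p38a-lox, where 0.548% of all tested genes were called higher. B4galt1, the catalytic partner of alpha-lactalbumin, differed by 0.51 ± 0.240 (SE, limma adjusted p 0.362) in PyMT against MMTV-Cre. Its difference was -0.06 ± 0.240 (SE) in p38a-lox PyMT against p38a-lox. Slc2a1, the main glucose transporter of the gland, was called in p38a-lox PyMT against p38a-lox, rising by 1.25 ± 0.244 (SE; adjusted p 0.0292) from 10.86 ± 0.408 (SD, n = 4). It differed by 0.76 ± 0.244 (SE; adjusted p 0.151) in PyMT against MMTV-Cre. Its means were close in PyMT (12.26) and p38a-lox PyMT (12.11). In p38a-lox against MMTV-Cre, Slc2a1 differed by -0.64 ± 0.244 (SE, limma adjusted p 0.946). There 8 of the 9 tested genes of the list had estimates below 0. The list's median was -0.54, against 0.0005 for all tested genes.

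Among 17 tested ion and amino acid transport genes (18 listed), 2 were called higher in each PyMT comparison and 0 lower. Of all tested genes, 0.881% were called higher and 0.382% lower without p38a-lox, and 0.548% and 0.229% with it; these shares also stand beside the counts of the next lists. Slc7a5, a transporter of large neutral amino acids, rose by 1.42 ± 0.266 (SE; adjusted p 0.0191) without p38a-lox and by 1.72 ± 0.266 (SE; adjusted p 0.0099) with it. Slc30a2, which loads zinc into secretory vesicles, rose by 1.27 ± 0.278 (SE; adjusted p 0.0486) with p38a-lox. Slc34a2, a phosphate transporter, was called without p38a-lox (0.88 ± 0.185, SE; adjusted p 0.0327), but its means in MMTV-Cre (3.46) and p38a-lox (3.65) lay under the filter value of 3.67, so it was tested through its signal in the groups with PyMT (4.34 in PyMT and 3.71 in p38a-lox PyMT). Of 16 tested genes for other milk and alveolar secreted proteins (20 listed), 1 was called, in PyMT against MMTV-Cre: Folr1, a folate receptor found in milk, rose by 2.29 ± 0.528 (SE; adjusted p 0.0490). Of 14 tested genes of casein phosphorylation and secretory processing (16 listed), 1 was called, in the same comparison: Sec24d, a coat protein of vesicles leaving the endoplasmic reticulum, rose by 0.87 ± 0.182 (SE; adjusted p 0.0314). None of the 6 lists had a gene called in p38a-lox against MMTV-Cre, in p38a-lox PyMT against PyMT or in the interaction.

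Most of these calls lay close to the threshold. In 16 fits that each left out 1 array, Elovl5 was called in 16, and Slc7a5 in 16 with p38a-lox and in 14 without it (lost without MMTV-Cre 4 or PyMT 1, adjusted p up to 0.0776). Thrsp was called in 14 (lost without PyMT 1 or PyMT 4, up to 0.0580), Sec24d in 12 (lost without MMTV-Cre 1, 3 or 4 or PyMT 1, up to 0.120) and Slc2a1 in 11 (lost without p38a-lox 1 or 3 or p38a-lox PyMT 2, 3 or 4, up to 0.117). Slc34a2 was called in 8, Slc30a2 in 5, Fasn and Cebpb in 4, Igf1r in 4 without p38a-lox and 3 with it, and Folr1 in 2, with adjusted p-values of up to 0.121, 0.172, 0.156, 0.143, 0.153, 0.162 and 0.161. None of these differences changed its sign. The Elovl5 call did depend on the probe set chosen. Averaged over its probe sets, Elovl5 differed by 1.20 in PyMT against MMTV-Cre and was not called (limma adjusted p 0.0907).

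The genes whose signals ran most like the milk genes were named by their Pearson correlation over the 16 arrays with the mean of the 9 standardised milk genes. They were Cd81 (0.86), Cpsf4l (0.86), Nr4a1 (0.85), Lao1 (0.84), Pxdc1 (0.82), Chrdl2 (0.82), Nr4a3 (0.81) and Mgll (0.81). Lao1, which encodes an L-amino acid oxidase secreted into mouse milk, had mean signals of 5.93 in MMTV-Cre, 6.28 in p38a-lox, 9.81 in PyMT and 9.17 in p38a-lox PyMT. Cd81, a tetraspanin, had 10.66, 11.30, 11.73 and 11.55 in the same order. Of the milk genes themselves, Csn1s2a ran closest to that mean (0.92) and Glycam1 least (0.39). Each milk gene is part of that mean, so these values cannot be set beside those of the other genes.

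The genes most like Wap were S100a8 (0.94), Hes7 (0.91), Olfm2 (0.91), Cebpb (0.90) and Ndufab1 (0.89). S100a8, a calcium-binding protein abundant in neutrophils, had mean signals of 4.89 in MMTV-Cre, 5.11 in p38a-lox, 9.05 in PyMT and 7.02 in p38a-lox PyMT and, like Wap, was highest in PyMT, then in p38a-lox PyMT. Cebpb had 8.58, 8.42, 10.14 and 9.23. Among the milk genes, Lalba (0.83) and Csn3 (0.81) ran closest to Wap, and Csn1s1 (0.08) and Glycam1 (0.02) ran least like it. These points share arrays and the difference between the groups of 6 and 9 weeks.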

How the data were processed

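Total RNA from luminal cells isolated by fluorescence-activated cell sorting was hybridised to Affymetrix mouse arrays. The deposited values are log2 signals made with RMA per the submitters' processing notes; neither the labels nor the file header gives its version or settings. RMA normalises arrays to each other, so absolute transcript amounts cannot be read. Of 45141 probe sets, 28898 had 1 gene symbol, 551 had several and were not named, and 15692 have no name here.

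The probe set with the highest mean stood for each gene, and the 14410 of 17097 genes with a mean at or above the 25th percentile of probe sets (3.67) were tested. One model over 16 arrays and 4 groups was fitted with limma 3.58.1 in R 4.3.3 (12 residual degrees of freedom, two-sided contrasts, checked on simulated data). P-values were adjusted by Benjamini and Hochberg across the 14410 genes, and a gene was called below 0.05. Errors are SE for differences and SD for group means; their number of arrays limits the precision. Background shares are percentages of tested genes called, computed from the deposited log2 values.

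Named genes were the milk genes, Mapk14, up to 4 called genes with the smallest p per pathway list and comparison, 11 regulators and partners, and the 8 genes most like the mean and 5 most like Wap. The genes and lists were chosen with earlier results of these data known. Alternatives covered the filter, probe sets, normalisation, weights, variance model, covariate, permutation and leaving out each array. Replicate numbers follow the order of deposition and pair nothing.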

Additional observations from a re-analysis of the deposited data

Results flagged for a closer look

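Of 36 groups of 4 arrays (9 genes in 4 groups), 2 held an array that stood apart from the other 3 by Dixon's criterion, which flags about 1 in 20 groups by chance. Csn2 had a signal of 7.81 in array MMTV-Cre 2, with the other MMTV-Cre arrays at 11.32 to 11.84. Csn1s2a had a signal of 10.38 in array PyMT 2, with the other PyMT arrays at 12.52 to 12.63. The markers of other mammary cell types in both arrays are given with the casein values, and their part was not tested.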

How the results depend on the processing

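No paired analysis was possible because the labels give no replicate numbers. For the 9 genes in 5 comparisons, 1117 of 1197 alternative values kept direction and side of the threshold. Of the 49 changes of sign, 0 involved a called value. Many alternatives could not change a direction. A different filter or variance model leaves a gene's difference as it was, as does leaving out an array outside the comparison. Most results also lay far from the threshold, so these counts are no measure of stability. In PyMT against MMTV-Cre the 2 calls became 1 (Wap) with no filter, with all probe sets tested singly, with only the groups compared and, in a fit chosen after seeing the data, without p38a-lox 2 and PyMT 4, the arrays of lowest median correlation. They became 4 with array weights (adding Csn3 and Csn1s2b) and 4 by the exact permutation test without adjustment, and ran from 1 to 3 with 1 array left out. In p38a-lox PyMT against p38a-lox, the 0 calls became 1 (Wap) with a filter at the median, with only the groups compared and by the exact permutation test, 4 with array weights (Wap, Lalba, Csn3 and Btn1a1), 1 (Csn3) without the 2 arrays of lowest correlation, and ran from 0 to 1 with 1 array left out. The exact permutation test, unadjusted, gave 1 in p38a-lox against MMTV-Cre (Csn1s2b) and 1 in p38a-lox PyMT against PyMT (Wap); neither it nor the fit on only the groups compared was run for the interaction. The cause of these changes was not tested. Wap in PyMT against MMTV-Cre was called under all 27 alternatives, with adjusted p-values of 0.000248 to 0.0393 where p was adjusted.

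Uncalled differences that changed sign were all small against their intervals. In p38a-lox against MMTV-Cre, Csn3 became 0.0049 with the mean of its probe sets, Wap became -0.014 with arrays centred, and Btn1a1 became -0.068 with array weights; without the 2 arrays of lowest correlation, Btn1a1 became -0.22 and Wap -0.079. In the interaction, Csn3 became 0.064 with arrays centred, 0.064 with array weights, 0.014 with the title number range as a covariate and 0.11 without the 2 arrays, and Btn1a1 became -0.021 with that covariate. In p38a-lox PyMT against PyMT, Glycam1 became 0.0034 with the covariate and 0.73 without the 2 arrays, and Csn1s2a became 0.077 without them. With 1 array left out, differences in p38a-lox against MMTV-Cre ran from -0.27 to 0.53 for Btn1a1, -0.048 to 1.29 for Csn2, -0.079 to 0.16 for Wap, -0.19 to 0.046 for Csn3 and -1.18 to 0.10 for Glycam1. In the interaction they ran from -0.34 to 0.46 for Btn1a1, -0.10 to 0.14 for Csn3 and -0.55 to 1.17 for Glycam1. In p38a-lox PyMT against PyMT they ran from -0.52 to 0.020 for Csn1s1, -0.67 to 0.14 for Csn1s2a, -0.55 to 0.13 for Csn1s2b, -0.10 to 0.020 for Csn3, -0.999 to 0.73 for Glycam1 and -0.14 to 0.40 for Btn1a1. Csn1s1 in PyMT against MMTV-Cre ran from -0.30 to 0.62, and Glycam1 in p38a-lox PyMT against p38a-lox from -1.14 to 0.044.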

Other observations

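The numbers in the sample titles fall into a lower range (9 arrays) and a higher range (7 arrays), whose meaning is not given. As values with no test, Wap differed between PyMT and MMTV-Cre by 3.74 in the lower range (3 arrays against 2) and by 2.26 in the higher range (1 against 2), and Lalba by 3.07 and 4.11. Between p38a-lox PyMT and PyMT, Wap differed by -1.84 in the lower range (2 arrays against 3) and by -0.65 in the higher range (2 against 1). Csn1s1 differed between p38a-lox and MMTV-Cre by 1.41 in the lower range, which holds array MMTV-Cre 2, and by -0.09 in the higher range (2 against 2 in both).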
